A study of Mus musculus with 14 samples.

Results

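The hypoxia response and glycolysis genes were followed through the aortic valve leaflets of 14 mice. The set is a list of 35 genes chosen by name: the transporter and enzymes that carry glucose to lactate, the oxygen-sensing transcription factors and prolyl hydroxylases, and well-known targets of those factors. All 35 were found among the 56941 genes of the count table, and all 35 passed the filter on low counts (a mean of at least 10 counts over the 14 libraries), which kept 19145 genes. The mice were wild-type C57BL/6J males, 8 weeks old at the start, and per the labels every group, controls included, ate the Breslow Western diet, described there as hypercholesterolemic. The 4 Ctrl mice received nothing else. The 4 AngII mice carried an osmotic pump that delivered angiotensin II at 1000 ng/kg/min for 28 days. The 4 AngII+LY mice had the same infusion and intraperitoneal injections of 3 mg/kg LY272015, which blocks HTR2B, a serotonin receptor, and the 2 LY mice received the injections without the pump. Per the labels the infused mice were sampled 48 h after their pumps came out, which the study's methods state for only some of them. The labels of some dosed mice name other compound numbers of the LY series, the dosing interval is stated in different ways, and a single bulk library was made of each mouse's leaflets.

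Glycolysis splits glucose into pyruvate, and lactate dehydrogenase turns pyruvate into lactate when mitochondria do not take it up. When oxygen is low, the prolyl hydroxylases that mark the HIF alpha subunits for destruction stop working. HIF-1α and HIF-2α then accumulate as proteins and switch on glycolytic enzymes, the glucose transporter GLUT1, the angiogenic factor VEGF-A and regulators of mitophagy and growth. Much of this control acts on protein stability, so the mRNA of a HIF subunit is not a readout of HIF activity. Aortic valve leaflets are thin and mostly avascular, and the heart muscle next to them expresses several of the same enzymes at high levels.

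Library totals ran from 20990655 counts in AngII 4 to 73128220 counts in the deepest library, also of the AngII group. All markers listed for valve interstitial fibroblasts, endothelial cells and cardiomyocytes were detected in every group, so the leaflets came with some heart muscle RNA. The 18 cardiomyocyte markers together took 0.993 to 4.15% of the counts in the Ctrl mice, 1.89 to 2.33% in the LY mice, 0.960 to 1.87% in the AngII mice and 2.26 to 5.50% in the AngII+LY mice. The last 2 groups did not overlap, and their means differed by 2.23 percentage points (exact permutation p = 0.0286, the smallest that 4 against 4 can give). The 10 fibroblast markers moved the other way, with 1.23 to 1.89% in the AngII mice and 0.512 to 0.925% in the AngII+LY mice (exact permutation p = 0.0286). Smooth muscle markers took 0.0525 to 0.975% in the Ctrl mice, 0.0334 to 0.0875% in the AngII mice and 0.0973 to 0.355% in the AngII+LY mice, and adipocyte markers 0.0937 to 0.133%, 0.0431 to 0.0755% and 0.0850 to 0.114%. The adipocyte share of the AngII mice was below both other groups and their smooth muscle share below that of the AngII+LY mice (exact permutation p = 0.0286 each). Mitochondrial transcripts took 4.00 to 7.52% of counts in the Ctrl mice, 8.62 to 9.76% in the LY mice, 9.83 to 25.5% in the AngII mice and 10.1 to 20.2% in the AngII+LY mice, so all 3 treated groups lay above the Ctrl range. These shares move with the groups, and in bulk tissue fewer cells of a type and less RNA per cell cannot be told apart.

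Levels differed by more than 1000-fold between members. On the scale of normalized counts (counts divided by the relative TMM library size) per kb of exons, aldolase A (Aldoa) had the highest median in the Ctrl mice, 16449, with a range of 11980 to 24792. Triosephosphate isomerase (Tpi1) followed with 9293, and lactate dehydrogenase A (Ldha) with 7509. The ranges of Aldoa and Tpi1 overlapped, as did those of Tpi1 and Ldha, so the order of neighbours is not fixed by 4 mice. Pyruvate kinase M (Pkm) at 2986, Pgk1 at 2453, Epas1 at 1851 and Gpi1 at 1832 came next. Epas1, the gene of HIF-2α, stood well above Hif1a, whose median was 382 per kb, and their Ctrl ranges did not overlap. The brain-type aldolase Aldoc was at the bottom with 6.62 per kb, below the carbonic anhydrase Car9 with 20.4.

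**Figure D1:**
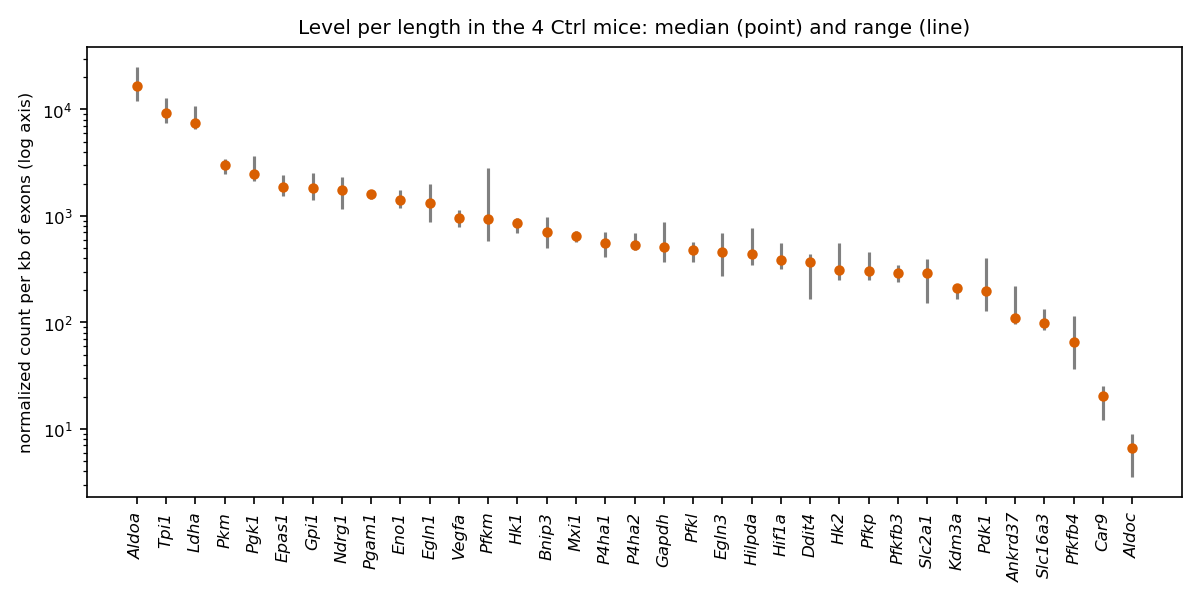
Level of each member in the 4 Ctrl mice, as normalized count per kb of exons on a log axis, with the median as a point and the lowest to highest mouse as a line. Aldoa, Tpi1 and Ldha led with medians of 16449, 9293 and 7509, and Car9 and Aldoc ended the order at 20.4 and 6.62.

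Gapdh, the gene of glyceraldehyde-3-phosphate dehydrogenase, ranked only 19 of 35 per kb, with a median of 506. The reference annotation holds 164 other loci that match its transcript at 90% identity or more, and the 152 of them in the table carried 107% of the counts given to Gapdh itself. Reads of Gapdh can be split among these copies, so its level is uncertain. Near-identical copies of Aldoa, Eno1, Ldha, Pkm and Pgk1 together held at most 1.28% of the gene's own counts. Variation among mice of a group was smallest for Epas1, with a mean coefficient of variation of 14.3% over the 3 groups of 4 mice, and largest for Aldoc with 77.3% and the muscle-type phosphofructokinase Pfkm with 60.0%.

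HIF proteins bind the core ACGTG or GCGTG, so the promoters of members were read for these letters on both strands. In the window from 250 bases before to 50 after the start of the canonical transcript (GRCm39), ACGTG occurred in 20 of 35 members, 57.1%, and in 24.4% of the 14943 protein-coding genes tested. GCGTG occurred in 51.4% of members and 45.8% of those genes. The palindrome CACGTG, in which 2 cores of opposite strands overlap, was in 14.3% and 9.42%. The list was chosen partly for well-known HIF targets, so these shares do not test the members. Stretches are shown for 6 members that carry ACGTG and are described in detail, a choice made after their expression values were seen. Each runs 5′ to 3′ on the gene's strand, and capitals mark ACGTG or its reverse complement CACGT. A match is a description of letters and was not tied to binding here.
Pgk1, chrX:105230538-105230578, plus strand: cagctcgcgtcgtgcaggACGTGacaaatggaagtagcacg
Ldha, chr7:46495162-46495202, plus strand: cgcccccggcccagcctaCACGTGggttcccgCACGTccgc
Aldoa, chr7:126398530-126398570, minus strand: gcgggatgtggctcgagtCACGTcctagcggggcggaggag
Bnip3, chr7:138511321-138511361, minus strand: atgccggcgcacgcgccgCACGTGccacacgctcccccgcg
Ankrd37, chr8:46453106-46453146, minus strand: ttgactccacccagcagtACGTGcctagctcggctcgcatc
Hif1a, chr12:73954488-73954528, plus strand: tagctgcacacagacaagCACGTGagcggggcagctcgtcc
Counted on both strands, so that each CACGTG gives 2 matches, Ldha had the most ACGTG matches of any member, 5 in its window. No ACGTG or GCGTG was found in the windows of Gpi1, Pfkl, Tpi1, Pkm, Vegfa and 4 more members.

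The first question was whether angiotensin II infusion changed these genes. For Hif1a the lowest AngII mouse exceeded the highest Ctrl mouse, and 8 glycolytic members were lower at an unadjusted p under 0.05. No member passed the call of an adjusted p under 0.05 with an absolute log2 fold change above 0.5 in edgeR, and neither did any of the 19145 genes, whose smallest adjusted p was 0.0573. At an unadjusted p under 0.05 the share over all genes was 25.2% (13.4% higher and 11.7% lower), and among members it was 9 of 35, 25.7%, with 1 higher and 8 lower. The members' share is thus near the background in size. The median log2 fold change was -0.24 over the members and -0.06 over all genes. Hif1a lay above the Ctrl range in all AngII mice and Pfkl, Pkm and Ldha below it, patterns that 7.46% and 7.56% of all genes showed. DESeq2 called Hif1a upward (9.16% of all genes) and Slc2a1 and Pfkl downward (4.75%), 3 members among 2663 genes. Without AngII 4, the library with the fewest counts, 1 member was higher and 1, Pkm, was lower, and without Ctrl 2, with the largest cardiomyocyte share of its group, 2 were higher and 3 lower. edgeR called 2 members without AngII 1, among 1725 called of 19162 genes, and 1 without Ctrl 4, among 805 called of 19079 genes. Beside the lower members, 7 of 8 smooth muscle markers (median log2 fold change -2.35) and 6 of 10 adipocyte markers (-1.58) were also lower at an unadjusted p under 0.05. So were 5 of 8 macrophage markers (-1.11). Of the 18 cardiomyocyte, 10 fibroblast and 9 endothelial markers 0 were lower at that level, and 1, 2 and 1 were higher. Their median log2 fold changes were -0.50, 0.10 and 0.17. At any p, 11 of the 18 cardiomyocyte markers were lower, and their median was -0.03 after GC correction. The smooth muscle share was 0.975% in Ctrl 1 and 0.240, 0.0991 and 0.0525% in the other Ctrl mice. For AngII against Ctrl that share gave an exact permutation p of 0.114, and 0 of 8 smooth muscle markers lay wholly below the Ctrl range. In LY against Ctrl all 8 were lower in direction as well, with a median of -2.84. The part of these cell types in the result was not tested.

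The second question was whether the antagonist changed them during infusion. In AngII+LY against AngII, 16 of 35 members, 45.7%, were higher at an unadjusted p under 0.05 and 0 were lower, where 22.5% of all genes reached that level, 10.1% higher and 12.4% lower. Again edgeR called 0 members and 0 genes, with a smallest adjusted p of 0.0568. The 16 were Hk2, Gpi1, Pfkl, Pfkm, Aldoa, Tpi1, Gapdh, Pgk1, Eno1, Pkm, Ldha, Egln1, Vegfa, Bnip3, Ankrd37 and Ddit4. The median was 0.52 over the members and -0.02 over all genes. In 7 members the AngII+LY range lay wholly above the AngII range, which was so for 5.45% of all genes, and in 0 wholly below. DESeq2 called 11 members, all upward, among 2082 genes, with 5.34% of all genes called upward and 5.54% downward. Without AngII+LY 4, the library with the largest cardiomyocyte share, 10 members were higher and 1, Mxi1, was lower. Both comparisons use the same 4 AngII mice, so a low value in those mice enters the first as a decrease and the second as an increase.

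**Figure D2:**
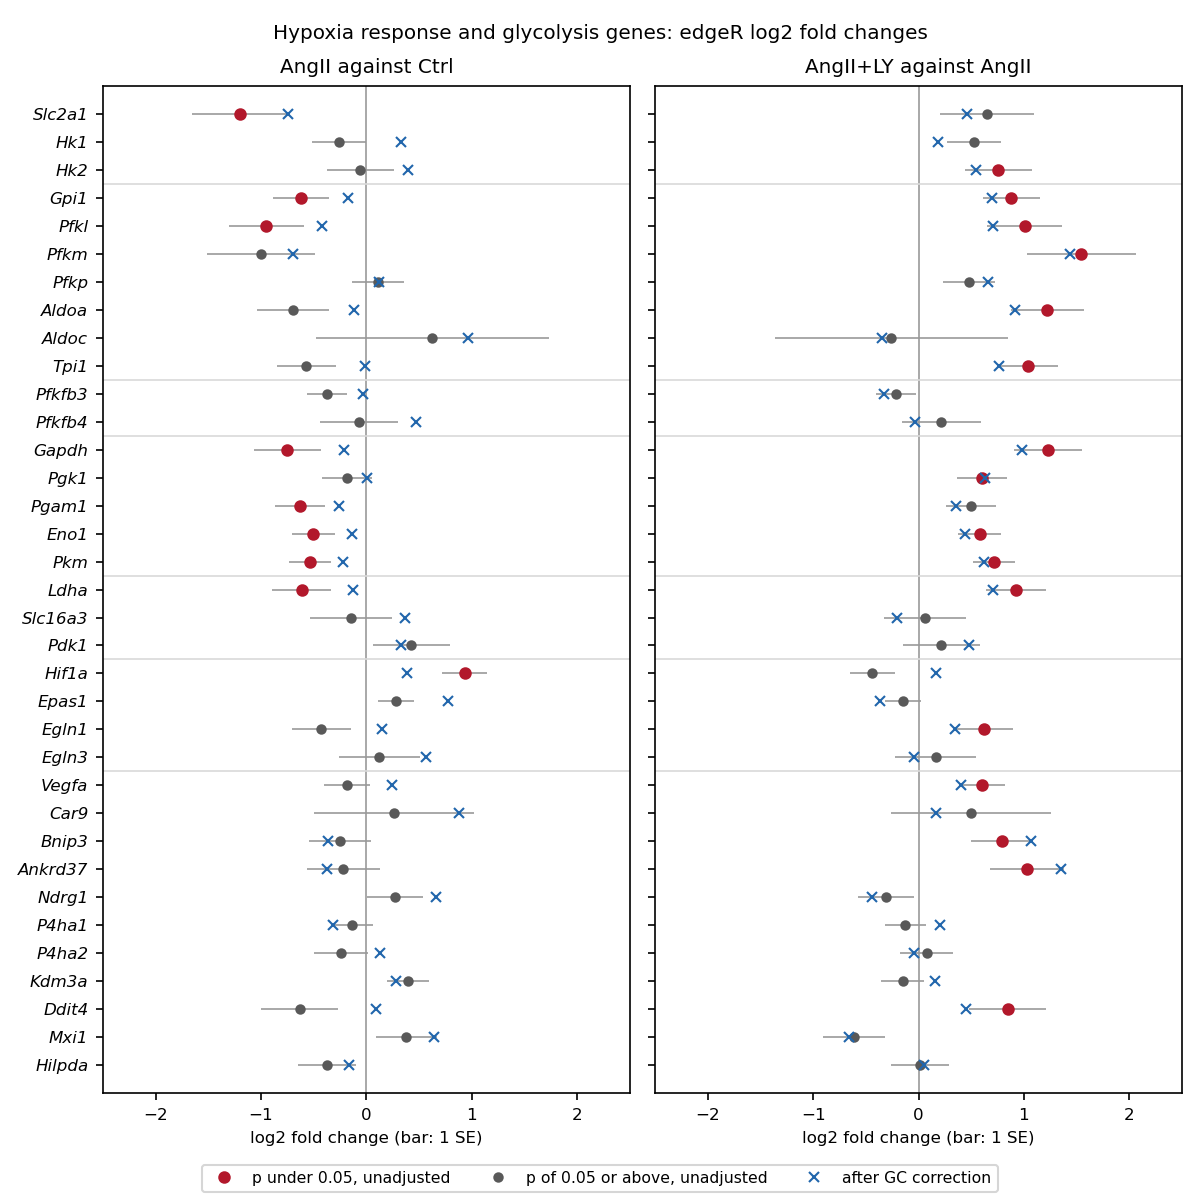
edgeR log2 fold changes of the 35 members in AngII against Ctrl (left) and AngII+LY against AngII (right), ordered by role, with 1 SE as the bar. Red points had an unadjusted p under 0.05 (9 on the left, 16 on the right), and blue crosses give the value after GC correction, where 3 members on the left (1 of them red) and 13 on the right (12 of them red) were at that level.

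GC content moved with the first comparison. Genes were split by the GC content of their exons into 5 bins of equal number, and the median log2 fold change of AngII against Ctrl ran from 0.68 in the bin with the lowest GC content to -0.52 in the highest. The members sit on this slope. Hif1a, with 40.28% the member with the lowest GC content, fell in the lowest bin, and 24 of 35 members fell in the upper 2 bins, where the members' medians were -0.21 and -0.60 and those of all genes -0.38 and -0.52. After each library was corrected for GC content, 3 members were higher (Hif1a, Epas1 and Ndrg1) and 0 were lower at an unadjusted p under 0.05, against 10.7% and 3.50% of all genes. The members' median then was 0.09, as was that of all genes.

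In AngII+LY against AngII the slope ran the other way, from -0.56 to 0.38 over all genes. Here the members' medians were above those of all genes in each bin, with 0.35 against -0.28, 0.31 against 0.01, 0.50 against 0.22 and 0.93 against 0.38 in the 4 bins that held more than 1 member. After GC correction 13 members were higher and 0 lower, against 9.64% and 5.86% of all genes, and the median was 0.41 over members and 0.04 over all genes.

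**Figure D3:**
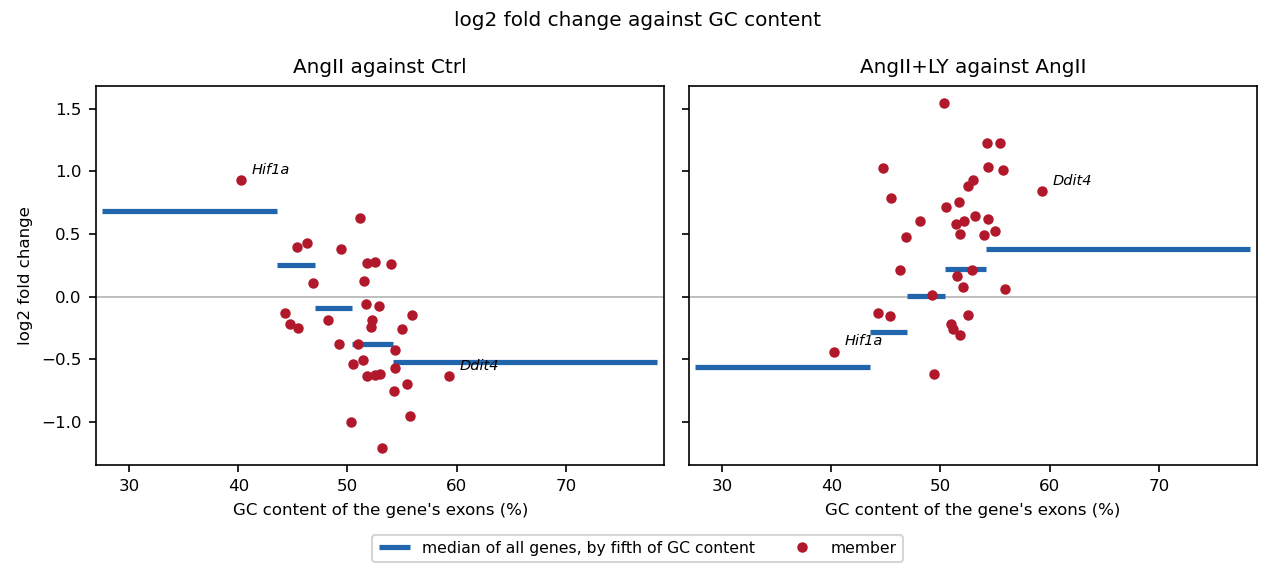
log2 fold change of each member (red points) against the GC content of its exons in percent, with the median over all tested genes in each bin of GC content as a blue line spanning that bin. On the left the line falls from 0.68 to -0.52 and members lie about it, and on the right it climbs from -0.56 to 0.38 with most members above it.

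Among the oxygen sensors, Hif1a had the largest difference in AngII against Ctrl before GC correction. Its normalized counts were 3187, 2626, 3191 and 4642 in the Ctrl mice, 3681 and 4280 in the LY mice, 4841, 7008, 5928 and 8279 in the AngII mice and 5408, 3866, 4833 and 5127 in the AngII+LY mice. All 4 AngII mice exceeded all Ctrl mice, while the AngII+LY mice overlapped both groups. AngII against Ctrl gave 0.93 ± 0.21 on the log2 scale (SE, edgeR adjusted p = 0.0574), a 1.91-fold difference. After GC correction it was 0.38 (edgeR adjusted p = 0.248). Removing any single mouse left the uncorrected value between 0.80 and 1.12. AngII+LY against AngII gave -0.44 ± 0.21 (edgeR adjusted p = 0.234), and this value changed sign to 0.17 after GC correction.

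Epas1, the sister gene for HIF-2α, changed less before GC correction. The Ctrl mice had 8767, 10640, 13560 and 10276 normalized counts, the AngII mice 11737, 11413, 15056 and 14274, and the AngII+LY mice 12915, 12844, 11264 and 10346. The groups overlapped throughout, at 0.28 ± 0.17 on the log2 scale in AngII against Ctrl (edgeR adjusted p = 0.327) and -0.15 ± 0.17 in AngII+LY against AngII (edgeR adjusted p = 0.656). After GC correction the first became 0.77 (edgeR adjusted p = 0.145), above the 0.38 of Hif1a.

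The prolyl hydroxylase genes differed in level. Egln1 (PHD2), the main oxygen sensor in most cells, ranged from 7806 to 17882 normalized counts in the Ctrl mice, 7622 to 11731 in the AngII mice and 8911 to 17679 in the AngII+LY mice. Its log2 fold change in AngII+LY against AngII was 0.62 ± 0.28 (edgeR adjusted p = 0.205). Egln3 (PHD3), itself induced by HIF, had a Ctrl range of 736 to 1854 and an AngII range of 783 to 1983, with log2 fold changes of 0.12 and 0.16 in the comparisons. Its AngII+LY values were 1716, 608, 1942 and 1887, so a single mouse stood far below the other 3.

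Glucose enters through GLUT1, the product of Slc2a1. Its normalized counts were 1830, 1833, 900 and 720 in the Ctrl mice, 827, 705, 484 and 268 in the AngII mice and 551, 826, 497 and 1718 in the AngII+LY mice. Only AngII 1 overlapped the Ctrl range. The log2 fold change was -1.20 ± 0.45 in AngII against Ctrl (edgeR adjusted p = 0.125), the lowest of all members, and -0.74 after GC correction. In AngII+LY against AngII it was 0.65 ± 0.45 (edgeR adjusted p = 0.420), and 0.12 without AngII+LY 4, which alone held the value of 1718.

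Hexokinases trap glucose in the cell. Hk1, the housekeeping form, held a median of 72.8% of the summed per-kb level of Hk1 and Hk2 in the Ctrl mice and 64.6% in the AngII+LY mice. Hk2, the inducible form of muscle and fat, ranged from 2087 to 4614 normalized counts in the Ctrl mice, 1453 to 3839 in the AngII mice and 3381 to 6277 in the AngII+LY mice. Its log2 fold change was -0.06 ± 0.31 in the first comparison and 0.76 ± 0.32 in the second (edgeR adjusted p = 0.178), and Hk1 had -0.26 and 0.52.

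In upper glycolysis the liver-type phosphofructokinase Pfkl separated the first groups. It had 5009, 7326, 7328 and 4770 normalized counts in the Ctrl mice, 4626, 3294, 3213 and 1496 in the AngII mice, and 3930, 4621, 5539 and 11323 in the AngII+LY mice. Each AngII mouse lay below each Ctrl mouse, and the log2 difference was -0.95 ± 0.36 (edgeR adjusted p = 0.125) that was -0.42 after GC correction. AngII+LY against AngII gave 1.01 ± 0.36 (edgeR adjusted p = 0.124), and 0.57 without AngII+LY 4.

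The muscle form Pfkm spread widely. Its values were 5223, 25237, 10966 and 5775 normalized counts in the Ctrl mice, 6679, 4056, 8960 and 3901 in the AngII mice and 11648, 8685, 16452 and 31998 in the AngII+LY mice. The high values belonged to Ctrl 2 and AngII+LY 4, the libraries with the largest cardiomyocyte shares of their groups, 4.15% and 5.50%. The log2 fold change in AngII+LY against AngII was 1.54 ± 0.52 (edgeR adjusted p = 0.112), the largest of all members, and 1.44 after GC correction. Pfkm made up a median of 54.2% of the per-kb sum of the 3 phosphofructokinase genes in the Ctrl mice, 47.0% in the AngII mice and 66.6% in the AngII+LY mice, with overlapping ranges. The platelet form Pfkp had log2 fold changes of 0.11 and 0.48.

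Glucose-6-phosphate isomerase, encoded by Gpi1, makes fructose 6-phosphate. Gpi1 had 15320, 21872, 16148 and 12258 normalized counts in the Ctrl mice, 13390, 11035, 11206 and 7041 in the AngII mice and 16326, 13610, 19305 and 29329 in the AngII+LY mice. AngII 1 was the only AngII mouse inside the Ctrl range, and all AngII+LY mice were above all AngII mice. The log2 fold changes were -0.62 ± 0.27 (edgeR adjusted p = 0.171) and 0.88 ± 0.27 (edgeR adjusted p = 0.0907).

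Aldolase splits fructose 1,6-bisphosphate and triosephosphate isomerase interconverts its products. Aldoa stood at 68437, 133332, 108493 and 64426 normalized counts in the Ctrl mice, 76842, 48942, 70270 and 35372 in the AngII mice and 100662, 79202, 156136 and 204236 in the AngII+LY mice. AngII and Ctrl mice overlapped, with -0.70 ± 0.34 (edgeR adjusted p = 0.217), but AngII+LY mice lay clear of the AngII mice at 1.22 ± 0.34 (edgeR adjusted p = 0.0768), a 2.33-fold difference.
Tpi1 had 21994, 15106, 22129 and 13239 in the AngII mice and 28000, 23476, 43973 and 53230 in the AngII+LY mice, again with no overlap, at 1.04 ± 0.28 on the log2 scale (edgeR adjusted p = 0.0738). Its Ctrl mice had 21742, 35388, 29762 and 20747. Aldoc was near the limit of detection, from 0 to 92.0 normalized counts over the 14 mice, and its 0 came from AngII 4, the shallowest library, where a count of 0 allows up to 3 counts.

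The PFKFB enzymes set the level of fructose 2,6-bisphosphate, which activates phosphofructokinase. Pfkfb3 had 2653, 2071, 1950 and 2817 normalized counts in the Ctrl mice, 2184, 1865, 1530 and 1744 in the AngII mice and 1947, 1577, 1225 and 1566 in the AngII+LY mice. Every AngII+LY mouse was below every Ctrl mouse, which was so for 4.89% of all genes. The log2 fold changes were -0.37 ± 0.19 in AngII against Ctrl (edgeR adjusted p = 0.234), -0.21 ± 0.19 in AngII+LY against AngII (edgeR adjusted p = 0.546) and -0.59 ± 0.19 in AngII+LY against Ctrl (edgeR adjusted p = 0.302). Pfkfb4 ranged from 249 to 788 in the Ctrl mice and had -0.07 and 0.22 in the main comparisons.

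In lower glycolysis 4 of 5 members were lower in AngII against Ctrl and 4 of 5 higher in AngII+LY against AngII at an unadjusted p under 0.05, where 11.7% of all genes were lower in the first and 10.1% higher in the second. After GC correction 0 of the 5 were lower in the first and 4 were higher in the second. Pkm, pyruvate kinase M, showed the cleanest separation. It had 38445, 45790, 41675 and 33245 normalized counts in the Ctrl mice, 31371, 26975, 26861 and 24830 in the AngII mice and 34244, 37316, 48821 and 60401 in the AngII+LY mice. The AngII mice lay below all others in both comparisons, with -0.53 ± 0.20 (edgeR adjusted p = 0.124) and 0.72 ± 0.20 (edgeR adjusted p = 0.0758). After GC correction the first was -0.22 and the second 0.62.

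Gapdh had 2874, 6230, 4378 and 2670 normalized counts in the Ctrl mice, 2974, 2307, 2781 and 1519 in the AngII mice and 4182, 3487, 7076 and 7708 in the AngII+LY mice. The AngII+LY mice were all above the AngII mice, at 1.23 ± 0.32 (edgeR adjusted p = 0.0694), the smallest adjusted p of any member in that comparison, and AngII against Ctrl gave -0.75 ± 0.32 (edgeR adjusted p = 0.162). Gapdh summed with its copies ranged from 4629 to 6691 in the AngII mice and 7409 to 14157 in the AngII+LY mice, also without overlap.
Eno1, enolase 1, had 20144, 16891, 15848 and 13736 in the Ctrl mice, 14806, 13130, 9308 and 9698 in the AngII mice and 12739, 19625, 19206 and 18554 in the AngII+LY mice. AngII+LY 1 stayed within the AngII range while the other 3 were above it. The log2 fold changes were -0.50 ± 0.20 (edgeR adjusted p = 0.146) and 0.58 ± 0.20 (edgeR adjusted p = 0.124).

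Pgam1, phosphoglycerate mutase 1, held 3760, 3752, 3093 and 3086 normalized counts in the Ctrl mice, 3107, 2602, 1500 and 1615 in the AngII mice and 2238, 3394, 3044 and 3825 in the AngII+LY mice. AngII 1 was just inside the Ctrl range and AngII 3 and 4 were far below it. The log2 fold changes were -0.63 ± 0.24 (edgeR adjusted p = 0.125) and 0.50 ± 0.24 (edgeR adjusted p = 0.228). Pgk1, phosphoglycerate kinase 1, differed little in the first comparison, -0.18 ± 0.24, and had 0.60 ± 0.24 in the second (edgeR adjusted p = 0.157), where AngII mice ranged from 4377 to 6761 and AngII+LY mice from 6096 to 11245.

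Ldha, which makes lactate, had 31272, 50982, 38093 and 33062 normalized counts in the Ctrl mice, 36579 and 34341 in the LY mice, 29252, 23080, 29004 and 18953 in the AngII mice and 35235, 29722, 48120 and 77650 in the AngII+LY mice. The AngII mice again lay below all mice of both other groups of 4. AngII against Ctrl gave -0.61 ± 0.28 (edgeR adjusted p = 0.193), which was -0.13 after GC correction. AngII+LY against AngII gave 0.93 ± 0.28 (edgeR adjusted p = 0.0901), which was 0.71 after it. The lactate exporter MCT4, encoded by Slc16a3, had log2 fold changes of -0.15 ± 0.39 and 0.06 ± 0.39, with 552 to 1758 normalized counts in the AngII+LY mice.

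Pdk1 encodes pyruvate dehydrogenase kinase 1, which restrains the use of pyruvate inside mitochondria. Its counts were 1134, 3553, 1870 and 1578 in the Ctrl mice, 1666, 1891, 3920 and 3478 in the AngII mice and 3025, 1982, 3402 and 4316 in the AngII+LY mice. These ranges overlapped, at 0.43 ± 0.36 (edgeR adjusted p = 0.492) and 0.22 ± 0.36 (edgeR adjusted p = 0.772).

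**Figure D4:**
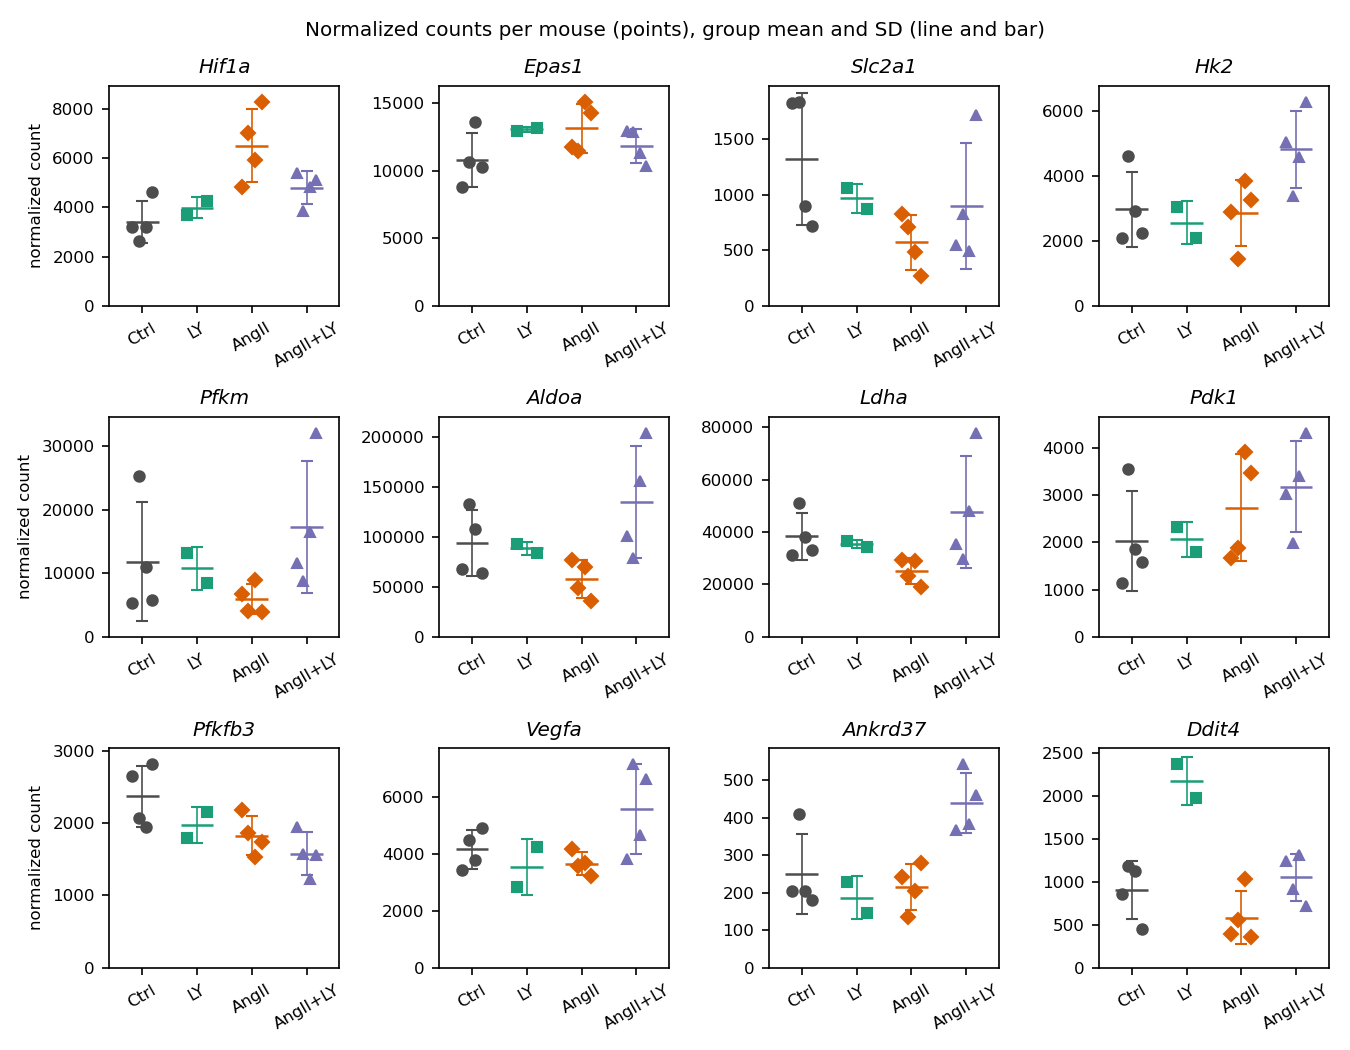
Normalized counts of 12 members in each mouse (points), with the group mean as a line and 1 SD as a bar, on axes that start at 0. Hif1a is highest in the AngII mice (4841 to 8279), Ldha is lowest there (18953 to 29252), Ankrd37 is highest in the AngII+LY mice (368 to 542), and Ddit4 is highest in the 2 LY mice (1977 and 2373).

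Outside glycolysis, the HIF targets divided in AngII+LY against AngII. Ankrd37, a small ankyrin repeat protein induced by HIF-1, had 205, 409, 205 and 179 normalized counts in the Ctrl mice, 243, 135, 205 and 278 in the AngII mice and 368, 542, 383 and 461 in the AngII+LY mice. All AngII+LY mice were above all AngII mice, at 1.03 ± 0.35 (edgeR adjusted p = 0.116), and GC correction raised this to 1.35. Bnip3, a mitophagy receptor, ranged from 1866 to 3690 in the AngII mice and 2704 to 6820 in the AngII+LY mice, at 0.79 ± 0.29 (edgeR adjusted p = 0.136).

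Vegfa, the angiogenic growth factor, had 3423, 4499, 3786 and 4917 normalized counts in the Ctrl mice, 4169, 3574, 3680 and 3229 in the AngII mice and 3834, 7153, 4652 and 6629 in the AngII+LY mice. AngII+LY 1 fell within the AngII range. The log2 fold changes were -0.18 ± 0.22 (edgeR adjusted p = 0.638), which turned to 0.24 after GC correction, and 0.60 ± 0.22 (edgeR adjusted p = 0.127).

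Ddit4 (REDD1), an inhibitor of mTORC1 that also answers to glucocorticoids and stress, was the only member at an unadjusted p under 0.05 in LY against Ctrl, where 1.39% of all genes were and 0.627% were higher. It had 862, 1186, 1133 and 446 normalized counts in the Ctrl mice, 2373 and 1977 in the LY mice, 392, 552, 1032 and 361 in the AngII mice and 1247, 920, 1319 and 724 in the AngII+LY mice. Both LY mice exceeded every other mouse, and 5.64% of all genes had both LY mice above all Ctrl mice, with 6.41% below. The log2 fold change in LY against Ctrl was 1.26 ± 0.43 (edgeR adjusted p = 1), and the exact permutation p was 0.133, the smallest that 2 mice against 4 can give in the 2-sided test used, which doubles the smaller tail. Without LY 1 no member stood at that level, and without Ctrl 3 there were 2. AngII+LY against AngII gave 0.84 ± 0.37 (edgeR adjusted p = 0.192).

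None of the other targets had an unadjusted p under 0.05 in either main comparison in the main edgeR fit (TMM scaling, filtered, no GC correction). In AngII against Ctrl Kdm3a passed that level with DESeq2, with RLE scaling and without AngII 1, and Ndrg1 after GC correction. Mxi1 passed it in AngII+LY against AngII with no filter and without AngII 1, AngII 2, AngII 3 or AngII+LY 4. Ndrg1, a stress-response gene, had log2 fold changes of 0.27 ± 0.27 and -0.31 ± 0.27, and the histone demethylase Kdm3a 0.40 ± 0.20 and -0.15 ± 0.20. The collagen prolyl 4-hydroxylases P4ha1 and P4ha2 lay between -0.24 and 0.08 in both comparisons, and the lipid droplet gene Hilpda had -0.37 ± 0.28 and 0.02 ± 0.28. Mxi1, a MYC antagonist, had -0.61 ± 0.29 in AngII+LY against AngII, but a single AngII mouse carried 11502 normalized counts where the other 3 had 4199 to 4381. Car9, a classical hypoxia marker, was low in every mouse, from 11.4 to 124 normalized counts.

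Cardiomyocyte markers moved with some of the enzymes. Over the 14 libraries, the log2 level of 11 of 35 members, 31.4%, correlated with the log2 cardiomyocyte marker share at a Pearson's r above 0.8, and so did 3.26% of all genes tested. For Pfkm r was 0.969 and Spearman's rho 0.960, for Aldoa 0.941 and 0.960, and for Ldha 0.890 and 0.877. Leaving out the 2 libraries farthest from the median share (AngII 2 and AngII+LY 4) left 0.950, 0.906 and 0.832, but the members above 0.8 went from 11 to 7, and the genes from 624 to 471. With all 14 libraries, the enzymes from hexokinase to lactate dehydrogenase below 0.8 were Pfkl at 0.738, Hk1 at 0.502 and Eno1 at 0.422. Pgam1 at 0.383, Aldoc at 0.092 and Pfkp at 0.078 were lower still. At the other end Hif1a had -0.375, Pfkfb3 -0.463 and Ndrg1 -0.567. Without AngII 2 and AngII+LY 4 these were -0.394, -0.470 and -0.276, and Mxi1 went from -0.344 to -0.516. These are descriptions over libraries that also share their group and their scaling, and no p was attached. In AngII+LY against AngII, 12 of 18 cardiomyocyte markers were higher at an unadjusted p under 0.05, as were 10.1% of all genes. Their median log2 fold change was 1.43, and they stand beside the 16 members higher there. At that level 3 of 8 smooth muscle markers were also higher (median 1.69). Of 10 fibroblast markers 7 were lower (median -0.97), as were 12.4% of all genes. The part of heart muscle RNA or of these other cell types in the members' differences was not tested.

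**Figure D5:**
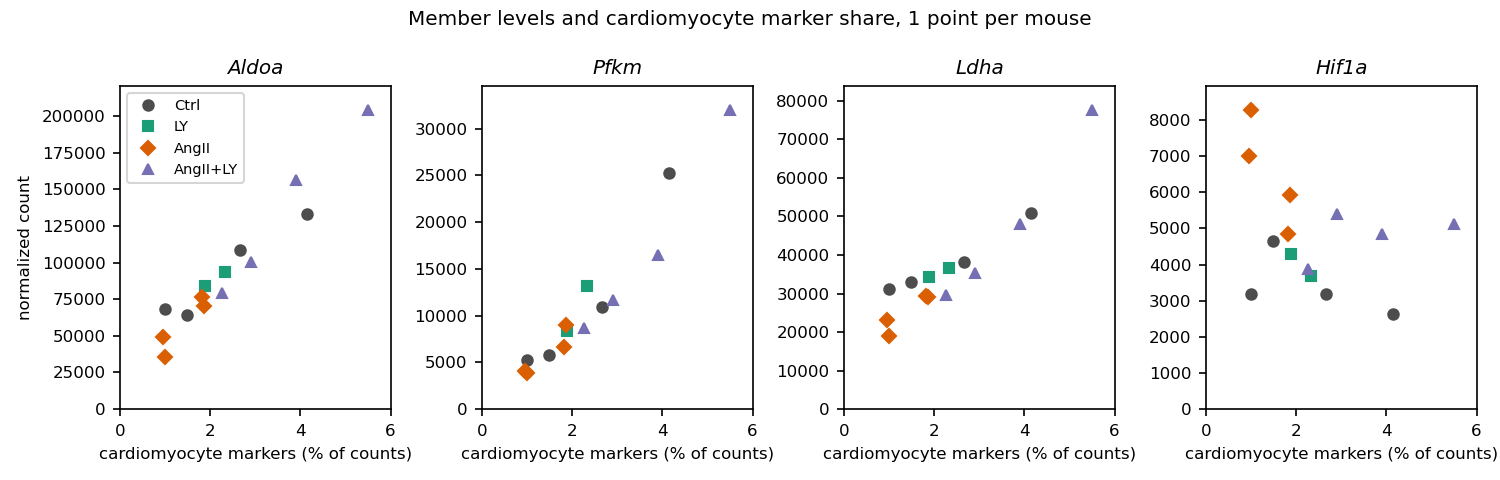
Normalized count of 4 members against the summed share of counts of 18 cardiomyocyte markers in percent, 1 point per mouse, with groups by colour and shape. Aldoa, Pfkm and Ldha climb with the share across all groups (r of 0.941, 0.969 and 0.890), whereas Hif1a does not (r of -0.375) and its AngII mice lie highest.

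Against the Ctrl mice, the AngII+LY mice had 4 members higher (Hk2, Pfkp, Hif1a and Ankrd37) and 1 lower (Pfkfb3) at an unadjusted p under 0.05, where 4.89% of all genes were higher and 6.14% lower. edgeR called 0 members and 0 genes, and DESeq2 called 0 members among 343 genes (0.841% of all genes upward and 0.951% downward). No member lay wholly above the Ctrl range, as 3.27% of all genes did. Hif1a stood at 0.50 ± 0.21 (edgeR adjusted p = 0.401) and Ankrd37 at 0.81 ± 0.35 (edgeR adjusted p = 0.407). After GC correction 16 members were higher and 0 lower, against 11.9% and 3.31% of all genes. The count rested on single mice: 0 were higher and 2 lower without AngII+LY 4, and 0 higher and 1 lower without Ctrl 3. It was 1 higher and 1 lower without Ctrl 1 or AngII+LY 3, 2 higher and 1 lower without Ctrl 4, and 7 higher and 1 lower without Ctrl 2 or AngII+LY 2.

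The difference between the antagonist's effect with and without infusion was tested in the same fit. At an unadjusted p under 0.05, 11 members had a larger log2 fold change for AngII+LY against AngII than for LY against Ctrl and 0 a smaller one, where 5.66% of all genes were in the first class and 7.64% in the second. The 11 were Gpi1, Pfkl, Pfkp, Aldoa, Tpi1, Gapdh, Eno1, Pkm, Ldha, Vegfa and Ankrd37. Their smallest edgeR adjusted p was 0.305, and only 2 LY mice stand behind the LY estimate. The count was 1 without LY 2, 4 without LY 1 or AngII+LY 4, 3 without Ctrl 2, 6 without Ctrl 3 and 7 without AngII 4 or AngII+LY 3. After GC correction 6 members had a larger value and 1, Epas1, a smaller one, against 4.54% and 3.75% of all genes. DESeq2 called 0 members there, with 0.423% of all genes called larger and 0.637% smaller.

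Ratios of sister genes within a library do not depend on library scaling, so 13 pairs were compared in both main contrasts. None of the 26 comparisons reached an exact permutation p under 0.05, and the smallest Benjamini-Hochberg adjusted p over them was 0.66. Epas1 exceeded Hif1a by 1.68 ± 0.45 (SD, 4 mice) on the log2 scale in the Ctrl mice, by 1.03 ± 0.33 in the AngII mice and by 1.31 ± 0.30 in the AngII+LY mice. The difference between AngII and Ctrl, -0.65, changed sign to 0.36 after GC correction. Ldhb, the heart form of lactate dehydrogenase, exceeded Ldha by 0.06 ± 0.41 in the AngII mice and 0.50 ± 0.16 in the AngII+LY mice, with overlapping ranges.

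A further list of 86 glycolysis, pyruvate and HIF genes outside the 35 had 80 genes tested, and at an unadjusted p under 0.05 the AngII to Ctrl comparison had 15 of them higher and 10 lower, the AngII+LY to AngII comparison 12 higher and 6 lower. These are 31.2% and 22.5% of the 80, against 25.2% and 22.5% of all genes, so the second share equals the background. Among 17 other glycolysis genes, 2 were higher and 1 lower in the first comparison and 4 were higher in the second (17.6% and 23.5%). The 4 are isoforms or a transporter typical of muscle: phosphoglycerate mutase 2 (Pgam2) at 1.60 ± 0.39 (edgeR adjusted p = 0.0599), Eno3 at 1.38 ± 0.47, the insulin-regulated glucose transporter Slc2a4 at 1.36 ± 0.51 and Ldhb at 1.33 ± 0.43. All 4 AngII+LY mice were above all AngII mice for Pgam2, as for 5.45% of all genes. Slc16a1 (MCT1), a lactate transporter, had 4783 to 13484 normalized counts in the AngII mice and 1841 to 3943 in the Ctrl mice. All AngII mice were above all Ctrl mice, as for 7.46% of all genes. The log2 difference was 1.45 ± 0.38 (edgeR adjusted p = 0.0608), which GC correction left at 1.46. The LY mice had 3774 and 6159 and the AngII+LY mice 3322 to 9123.

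Among pyruvate genes, 3 of 12 were higher and 1 lower in AngII against Ctrl, and 2 were higher and 0 lower in AngII+LY against AngII (33.3% and 16.7%, against 25.2% and 22.5% of all genes). The dehydrogenase subunit Dld had 1.09 ± 0.34 in the first (0.36 after GC correction), and Pdk2, a further pyruvate dehydrogenase kinase, had -0.84 ± 0.39 and 0.96 ± 0.39. Of 13 HIF subunits and regulators, 3 were higher and 1 lower in the first and 1 higher and 1 lower in the second (30.8% and 15.4%). The products of the elongin genes are part of the VHL complex that degrades HIF. Eloc gave 1.06 ± 0.27 in the first (edgeR adjusted p = 0.0588) and Elob 0.82 ± 0.19 in the second (edgeR adjusted p = 0.0588). Each was without overlap between groups, as 7.46% of all genes were above in the first and 5.45% in the second. Eloc, with 41.45% GC, fell in the lowest GC bin, where the median of all genes was 0.68 in the first.

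Other HIF targets went in both directions, with 7 of 38 higher and 7 lower in AngII against Ctrl and 5 higher and 5 lower in AngII+LY against AngII (36.8% and 26.3%, against 25.2% and 22.5% of all genes). Adm, which encodes the vasodilator peptide adrenomedullin, had 1086, 2212, 1222 and 499 normalized counts in the Ctrl mice and 368, 307, 345 and 208 in the AngII mice. No AngII mouse reached the lowest Ctrl mouse, as for 7.56% of all genes, at -2.02 ± 0.38 (edgeR adjusted p = 0.0573), and -1.58 after GC correction. In AngII+LY against AngII the mitochondrial gene Higd1a was higher at 0.72 ± 0.20. The collagen lysyl hydroxylase Plod2 was lower at -1.05 ± 0.30 and the lysyl oxidase-like Loxl2 at -0.91 ± 0.30. In each case the groups did not overlap (5.45% of all genes above and 5.66% below). Plod2, with 42.84% GC, fell in the lowest GC bin, where the median of all genes was -0.56 in this comparison.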

How the data were processed

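Aortic valve leaflet RNA of 14 mice was sequenced in bulk. The authors trimmed the reads, aligned them to GRCm39 with HISAT2 and, per the labels, counted them with featureCounts. The table they deposited is named as normalized but holds raw counts: 100% of values are whole numbers and the library totals differ, so edgeR could be used. Symbols came from GENCODE vM39, which lacked 618 genes holding 0.0361% of counts. The filter asked for a mean of 10 counts or more, and edgeR 4.0.16 (R 4.3.3) then fitted all 4 groups together by quasi-likelihood after TMM scaling, with Benjamini-Hochberg adjustment over the 19145 genes. Calls required an adjusted p below 0.05 together with a log2 fold change beyond 0.5 in size. For normalized counts, each count was divided by its library's TMM size relative to the mean size. Exon lengths are unions over transcripts. GC correction removed a loess trend (span 0.3) of each library on exon GC content, known for 19043 genes. Alternatives were DESeq2 1.42.0, other scaling, no filter, replicate numbers as a block and each mouse left out. Ratios used a pseudocount of 1 and exact 2-sided permutation tests. Copies were found with BLAST 2.17.0 at 90% identity over 50% of the transcript. The members and lists were chosen with earlier results of these data known. All members are named, full values are given for those at an unadjusted p under 0.05 in a main comparison (at most 10 each) and for 7 key members, and at most 4 genes are named per related list and comparison. Whether each library is a separate mouse follows the labels. Some label terms for the compound differ from LY272015, and groups follow the sample titles.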

Additional observations from a re-analysis of the deposited data

Results flagged for a closer look

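In 105 groups of 4 mice, 1 for each member and group, 4 single mice lay farther from the others than Dixon's 95% critical value for 4 samples allows. Chance flags about 1 in 20 groups. Eno1 had 12739 normalized counts in AngII+LY 1 and 18554 to 19625 in the other AngII+LY mice. Egln3 had 608 in AngII+LY 2 and 1716 to 1942 in the others. Ankrd37 had 409 in Ctrl 2 and 179 to 205 in the others, and Ctrl 2 also had the largest cardiomyocyte marker share of the Ctrl mice, 4.15%. Mxi1 had 11502 in AngII 4 and 4199 to 4381 in the others. AngII 4 was the library with the fewest counts, 20990655, and without it the Mxi1 difference in AngII against Ctrl went from 0.38 to -0.13 on the log2 scale.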

How the results depend on the processing

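Counts here are of members at an unadjusted p under 0.05 in edgeR unless called ones are named. In AngII against Ctrl the count of 9 became 3 after GC correction, with 3 higher and 0 lower so that the direction reversed, and 2 with the replicate block and GC correction. Called members went from 0 to 1, Hif1a, with the bias-adjusted quasi-likelihood fit, which called 555 of 19145 genes. With DESeq2 they went to 3 among 2663 genes called. Leaving out each mouse gave 2 to 13, and 0 to 2 called, the 2 among 1725 of 19162 genes called without AngII 1. In AngII+LY against AngII DESeq2 called 11 members among 2082 genes, and leaving out each mouse gave 11 to 17. In AngII+LY against Ctrl the count of 5 became 3 with the block, 16 after GC correction and 10 with both, and leaving out each mouse gave 1 to 8, reversed at 1 without Ctrl 3 and at 2 without AngII+LY 4. In LY against Ctrl leaving out each mouse gave 0 to 2. The interaction count of 11 became 7 with the block, 7 after GC correction and 4 with both, and 1 to 14 with a mouse left out. The Ldhb to Ldha ratio was the 1 of 26 with an exact permutation p under 0.05 after GC correction. Among single members, Vegfa in AngII against Ctrl reversed to 0.24 after GC correction and 0.28 with the block as well. Hk1, Hk2, Pfkfb4, Pgk1, Slc16a3, Egln1, P4ha2 and Ddit4 also changed sign there after GC correction, Egln1 from -0.43 to 0.15. In AngII+LY against AngII Hif1a reversed to 0.17 and 0.16. Pfkfb4, Slc16a3, Egln3, P4ha1, P4ha2 and Kdm3a changed sign there too after GC correction, Kdm3a from -0.15 to 0.16. Apart from the GC correction, whose slope was shown for all genes, the cause of these changes was not tested. Replicate numbers do not pair the mice: the correlation of same-numbered libraries ran from -0.128 to 0.0897 over 18 pairs, and 2 of 14 libraries correlated best with their own number. With the block alone, 1 member was higher and 6 lower in AngII against Ctrl and 16 higher in AngII+LY against AngII. The ratios were not run with a mouse left out, since the smallest 2-sided exact permutation p of 3 against 4, with the smaller tail doubled, is 0.0571. Depth limits Aldoc and Car9 most, the members with the lowest counts.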
